A study of Mus musculus with 12 samples.

Results

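The subunits of the mitochondrial respiratory chain and of ATP synthase that are encoded in the nucleus were measured in the hearts of 4 groups of Nkx2-5 knock-in mice. Members were taken by symbol: the Ndufa, Ndufb, Ndufc, Ndufs and Ndufv genes of complex I, the Sdha to Sdhd genes of complex II, Cyc1 and the Uqcr genes of complex III, the Cox4i, Cox5, Cox6, Cox7 and Cox8 genes of complex IV, and the Atp5 genes of ATP synthase. Assembly factors and pseudogenes were left out. Of 89 genes that fit these names in the RefSeq gene table, 86 had a probe (115 probes in all), and all 86 entered the test among 29795 genes and unnamed features. Ndufb1, Ndufb4b and Ndufb4c had none. By complex, 36 members belong to complex I, 4 to complex II, 9 to complex III, 20 to complex IV and 17 to ATP synthase. Ndufa4, which was first assigned to complex I and is now known as a subunit of complex IV, was counted with complex IV, as was its isoform Ndufa4l2.

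Nkx2-5 is a DNA-binding regulator that cardiac muscle cells need to form and to keep working. The samples were RNA of the heart apex of male C57BL/6J mice aged 15 weeks, with 3 arrays in each group. The control group carried a knock-in allele that keeps the isoleucine at residue 183, the I183M and I183P groups carried a methionine or a proline there, and the delta group carried a deletion allele. Each genotype label names that allele beside a + allele, so mice of the control group were knock-ins too. The labels do not say whether the arrays of a group came from separate animals, and the p-values below measure the spread between these samples only.

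The respiratory chain passes electrons from NADH (complex I) and succinate (complex II) through coenzyme Q, complex III and cytochrome c to oxygen at complex IV. Complexes I, III and IV pump protons across the inner mitochondrial membrane, and ATP synthase uses the return of those protons to make ATP. Heart muscle is packed with mitochondria, and striated muscle uses its own isoforms of several complex IV subunits (Cox6a2, Cox7a1 and Cox8b) in place of the ubiquitous ones (Cox6a1, Cox7a2 and Cox8a).

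Levels are log2 values of the processed spot intensity relative to the 75th percentile of the same array, so that 0 is the level of a probe at that percentile. Probes differ in how well they bind, and a level is compared between arrays only, never between probes. A total of 84 of the 86 subunits were well above background on all 12 arrays, as were all 14 markers of ventricular heart muscle (among them Myl2 and Tnni3). Control replicate 1 stood apart before any comparison: 99.1% of its spots were well above background, against 51.2% to 75.2% on the other 11 arrays. The arrays lay on 2 slides. Slide 1 held the control and I183M arrays and I183P replicates 1 and 2, and slide 2 held I183P replicate 3 and the delta arrays, so delta shares no slide with control or I183M, and a slide term in the fit rests on I183P, with 1 array on slide 2. Nkx2-5 itself read 3.77 to 3.92 on the delta arrays and 4.45 to 4.74 on every array of the other groups except control replicate 1 (3.11). Whether its probe lies in the deleted part was not determined here, so this reading does not check the labels. Fewer heart muscle cells and less RNA per cell cannot be told apart in these tissue samples.

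As a class, the subunits lay close to control in all 3 lines without control replicate 1 and without a slide term. The mean of control replicates 2 and 3 was the reference. Of 86 group means, 80 in I183M, 78 in I183P and 72 in delta were within 0.2 (log2) of it. The share of all features within 0.2 was not counted, so this closeness is not shown to be particular to the subunits. Against all 3 control arrays the median subunit was 0.50 higher in I183M, 0.45 higher in I183P and 0.53 higher in delta on the log2 scale, and 84, 83 and 83 of the 86 had a fold above 0. The medians over all tested features were 0.11, -0.03 and 0.04, with 56.7%, 48.8% and 52.2% of features above 0. Without control replicate 1 the subunit medians were 0.05, 0.0047 and 0.08, beside 0.09, 0.01 and 0.16 for all features. The number of subunits above 0 was then 62 in I183M (63.8% of features), 45 in I183P (51.9%) and 66 in delta (66.7%). With the slide as a block as well, the subunit medians without control replicate 1 were 0.05, 0.08 and 0.31. Those of all features were 0.09, 0.01 and 0.17. Delta shares no slide with control, and the slide term rests on I183P, with 1 array on slide 2. The part of the slide in the delta median was not tested.

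No subunit passed an adjusted p under 0.05 (limma, Benjamini-Hochberg over all 29795 features) in I183M versus control, where 0% of all features passed. None passed in I183P versus control, where 0.00336% of features did, or in delta versus control, where 0.0738% did. The direct comparisons gave none either, with 0% of features passing in I183P versus I183M, 0% in delta versus I183M and 0% in delta versus I183P. At an unadjusted p under 0.05, 1 subunit was counted in each comparison except delta versus I183M, which had 0. The matching shares of all features were 1.46%, 5.18% and 7.35% for the comparisons of I183M, I183P and delta with control, and 1.28%, 3.51% and 2.78% for I183P versus I183M, delta versus I183M and delta versus I183P. Leaving out control replicate 1, 0 subunits passed in every comparison, while the share of features that passed was 0% in I183M, 0.0168% in I183P and 0.171% in delta against control, and 0%, 0.0436% and 0.0235% in I183P versus I183M, delta versus I183M and delta versus I183P. At an unadjusted p under 0.05 the counts of subunits were then 0, 6, 6, 4, 6 and 3 in the same order, beside 6.16%, 8.16%, 14.9%, 9.51%, 11.4% and 12% of features. With array weights estimated by limma, which gave control replicate 1 a weight of 0.0120, 2 subunits passed. These were Cyc1 and Ndufa11, both lower in I183P than in I183M, in a comparison where 6.66% of all features passed at that setting.

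The size of the step on control replicate 1 was much the same for every complex. The 75th percentile subtracted was an intensity of 1450 on control replicate 1, against 506 to 657 on the other 11 arrays. A higher percentile lowers every level on its array by the same amount. The part of this percentile in the step was not tested. Each subunit was set against its own mean over the other 11 arrays. On control replicate 1 the median deviation was -1.37 for complex I, -1.42 for complex II, -1.43 for complex III, -1.38 for complex IV and -1.43 for ATP synthase, and the ventricular markers gave -1.37. Markers of some other cells were low on it too, with medians of -1.13 for 10 endothelial genes, -1.16 for 10 fibroblast genes and -0.84 for 9 macrophage genes, while the median of all features was 0.20. Other lists read high on it, with medians of 0.58 for 9 lymphocyte genes, 0.67 for 7 white adipocyte genes, 0.14 for 6 fast skeletal muscle genes and 2.04 for 6 genes of the testis. In that order, only 4, 4, 5 and 2 of these genes were well above background on all 12 arrays. The counts were 10, 10 and 8 for the endothelial, fibroblast and macrophage genes. The part of array background in the high lists was not tested. Over the other 11 arrays the median of all subunits lay between -0.19 and 0.09, with the lowest value on I183P replicate 3 and the highest on I183M replicate 3. On control replicate 1 all 84 well measured subunits lay below their mean, with deviations of -1.60 to -0.85, and 83 of the 86 had their lowest value on that array, compared with 41.2% of all features. Because control replicate 1 sets most of the size of the 3 comparisons with control, single members are given below with every array shown. The groups share 1 estimate of the spread, so its low values also widen the SE of these subunits in the direct comparisons. Without it, the smallest adjusted p of a subunit in limma was 0.522 in I183P versus I183M. It was 0.171 in delta versus I183M and 0.218 in delta versus I183P.

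**Figure D1:**
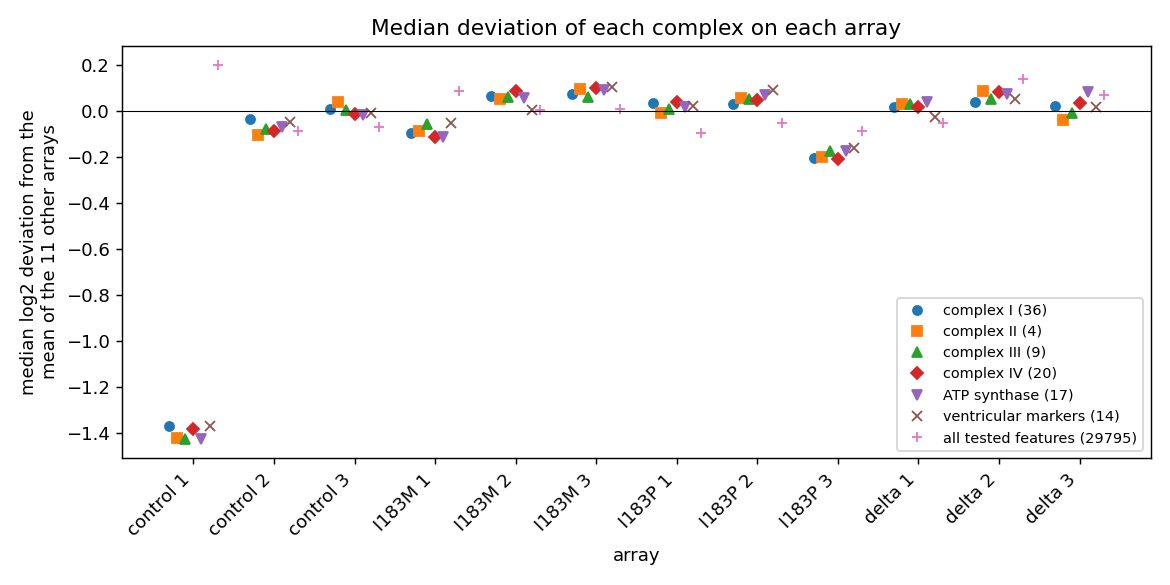
The median log2 deviation of each complex (number of genes in brackets) from its mean over the 11 arrays other than control replicate 1 is plotted for each of the 12 arrays, with the ventricular markers and all tested features. On control replicate 1 the complexes lie between -1.43 and -1.37 with the ventricular markers, and elsewhere they stay close to 0, lowest on I183P replicate 3.

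I183P replicate 3 was the next array to depart from its group. The median subunit read 0.23 lower on it than on the mean of I183P replicates 1 and 2, and 78 of 86 subunits read lower than on both. It was the only I183P array on slide 2. The ventricular markers moved with it, at -0.16 on that array. I183M replicate 1 also read low, with 78 of 86 subunits below both other I183M arrays. The share of all features below both other arrays of the group was 40.7% for I183P replicate 3 and 34.3% for I183M replicate 1.

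The direct comparisons followed these arrays. Between I183P and I183M the median subunit differed by -0.06, and 14 of 86 were above 0 (35.4% of all features). Delta against I183M gave a median of 0.03 with 55 above 0 (47.3% of features), and delta against I183P 0.08 with 75 above 0 (67.5% of features). Within slide 2, the 3 delta arrays lay above I183P replicate 3 by a median of 0.23, while without that array the median of delta against I183P was 0.01. With the slide as a block the medians against control were 0.50 for I183M, 0.52 for I183P and 0.76 for delta. Within slide 1 alone, I183P differed from I183M by a median of 0.02. The part of the slide in these shifts was not tested.

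**Figure D2:**
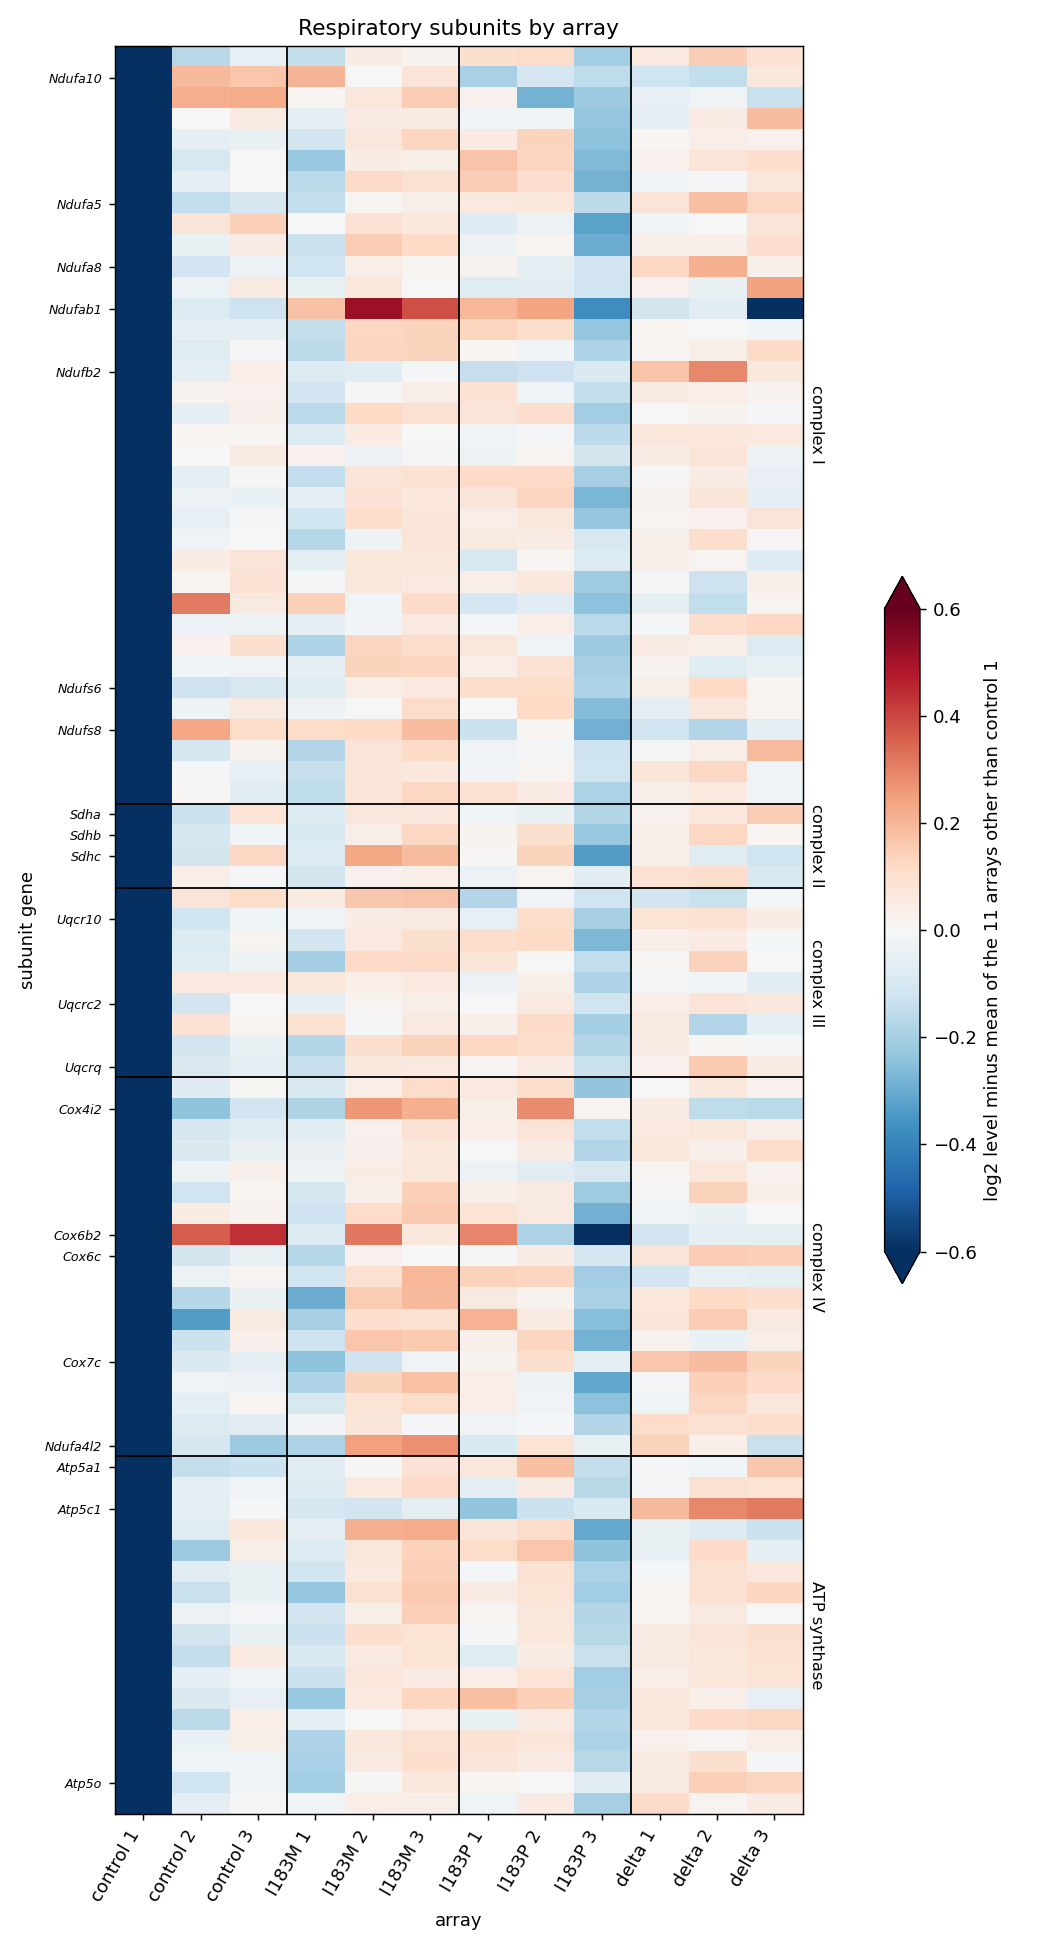
Each row is 1 of the 84 subunits measured on all arrays, grouped by complex, and each column is an array. Rows with the smallest unadjusted p of a complex or comparison carry a gene name. Colour gives the log2 level minus the mean of the 11 arrays other than control replicate 1, cut at 0.6 in both directions. Control replicate 1 is low throughout, I183P replicate 3 is low for most rows, and Atp5c1 stands out as high on the 3 delta arrays.

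Groups that did not overlap were counted for each comparison. All 3 delta arrays lay above all 3 control arrays for 41 of the 86 subunits (10.5% of all features) and below them for 0 (3.1%). Without control replicate 1 the counts were 41 higher (22.4% of features) and 11 lower (11.7%). With normexp background correction and quantile normalization they were 14 higher (10.3%) and 13 lower (4.92%) over all arrays, and 16 higher (17.4%) and 20 lower (16.3%) without control replicate 1, so the lean toward higher values in delta depended on the scale. I183M lay wholly above control for 6 subunits (2.36% of features) and below it for 0 (1.37%), and I183P lay above it for 3 (7.55%) and below it for 1 (5.23%). Without control replicate 1 the counts were 7 higher (23.4%) and 2 lower (9.07%) for I183M, and 3 higher (14.6%) and 16 lower (15.9%) for I183P. I183P lay wholly below I183M for 9 subunits (18.6% of features) and above it for 0 (5.79%). Delta lay wholly above I183M for 10 subunits (11% of features) and below it for 5 (6.28%), and wholly above I183P for 19 (13.4%) and below it for 0 (6.07%).

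**Figure D3:**
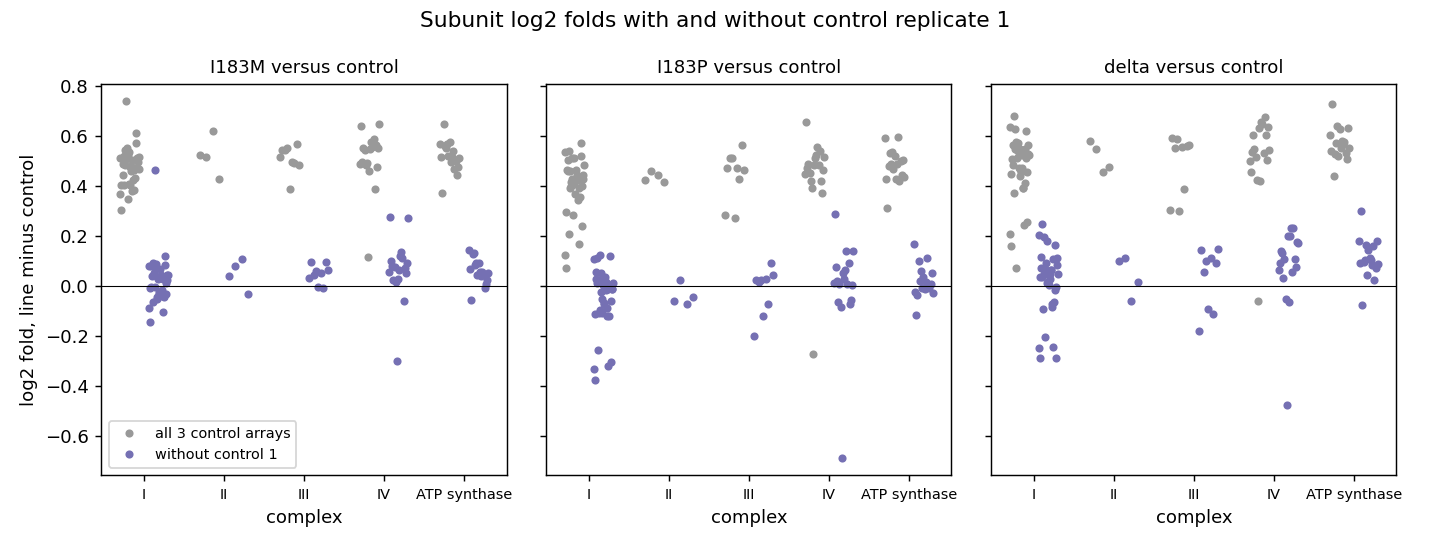
Each point is the log2 fold of a subunit measured on all arrays, line minus control, by complex. Grey points use all 3 control arrays and purple points leave out control replicate 1. Over all 86 subunits, with Cox7b2 and Cox8c, which are not drawn, the medians are 0.50, 0.45 and 0.53 with all control arrays. Without control replicate 1 they are 0.05, 0.0047 and 0.08.

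Complex I takes electrons from NADH. Its nuclear core subunits (such as Ndufs1, Ndufs8 and Ndufv1) carry the flavin and the iron-sulphur clusters or help bind the quinone, and the accessory subunits surround them. The median log2 fold of the 36 members without control replicate 1 was 0.03 in I183M, -0.01 in I183P and 0.05 in delta, with ranges of -0.14 to 0.46, -0.38 to 0.13 and -0.29 to 0.25. A few members read lower in both I183P and delta than on control replicates 2 and 3.

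Ndufs8, a core subunit that holds iron-sulphur clusters, read 4.06, 5.75 and 5.63 on control replicates 1 to 3 and 5.63, 5.64 and 5.71 on the I183M arrays. It read 5.39, 5.53 and 5.23 in I183P and 5.40, 5.35 and 5.46 in delta. All 6 arrays of I183P and delta lay below all 5 of I183M and control replicates 2 and 3. Relative to control replicates 2 and 3 the differences were -0.30 (SE 0.11, adjusted p 0.508, limma) for I183P and -0.29 (SE 0.11, adjusted p 0.278) for delta.

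Ndufa10, an accessory subunit, read 5.11, 6.49 and 6.47 in control, 6.50, 6.30 and 6.37 in I183M, 6.10, 6.20 and 6.15 in I183P, and 6.18, 6.15 and 6.37 in delta. Ndufa11, an accessory subunit of the membrane arm, read 4.91, 6.26 and 6.26 in control, 6.05, 6.11 and 6.19 in I183M, 6.07, 5.76 and 5.82 in I183P, and 5.99, 6.02 and 5.91 in delta. For both genes control replicates 2 and 3 lay above all I183P and delta arrays. Their differences from control without control replicate 1 were -0.33 (SE 0.11) and -0.38 (SE 0.11) in I183P, and -0.25 (SE 0.11) and -0.29 (SE 0.11) in delta. None of these passed in limma, with adjusted p-values of 0.441, 0.403, 0.327 and 0.291 in that order. Ndufa6, an accessory subunit, read 5.49, 6.86 and 6.92 in control, 6.78, 6.87 and 6.84 in I183M, 6.70, 6.75 and 6.46 in I183P, and 6.76, 6.78 and 6.86 in delta. Its delta values overlapped those of I183M.

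Ndufab1, the mitochondrial acyl carrier protein that is also a complex I subunit, varied more than the other members of its complex. It read 0.27, 1.13 and 1.08 in control, 1.38, 1.72 and 1.60 in I183M, 1.41, 1.45 and 0.83 in I183P, and 1.10, 1.14 and 0.46 in delta. The I183M arrays lay above all control and all delta arrays. I183M minus control was 0.74 (SE 0.31, adjusted p 0.879, limma), and 0.46 (SE 0.26, adjusted p 0.725) without control replicate 1.

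Some accessory subunits read highest in delta. Ndufb2 read 5.97, 7.10 and 7.19 in control, 7.07, 7.09 and 7.14 in I183M, 7.01, 7.03 and 7.06 in I183P, and 7.32, 7.44 and 7.21 in delta. Ndufa5 read 7.50, 8.76 and 8.81 in control, 8.76, 8.92 and 8.94 in I183M, 8.96, 8.97 and 8.75 in I183P, and 8.99, 9.09 and 9.03 in delta. In both, the 3 delta arrays lay above all other 9 by a small margin. Delta minus control was 0.68 for Ndufa5 (SE 0.32, adjusted p 0.703, limma) and delta minus I183P was 0.29 for Ndufb2 (SE 0.30, adjusted p 1.00). A second Ndufa5 probe read 7.33 to 7.40 in delta and up to 7.34 elsewhere, so its groups overlapped. Ndufb5 had delta values of 7.67 to 7.68 and a highest other value of 7.66, and its second probe did not separate delta (4.47 to 4.64, against up to 4.81 elsewhere). Ndufa8 read 5.17, 6.43 and 6.51 in control, 6.42, 6.58 and 6.55 in I183M, 6.57, 6.49 and 6.43 in I183P, and 6.67, 6.76 and 6.57 in delta. Ndufs6, an accessory subunit of the matrix arm, read 7.53, 8.88 and 8.90 in control, 8.93, 9.04 and 9.06 in I183M, 9.10, 9.11 and 8.81 in I183P, and 9.04, 9.12 and 9.01 in delta. For Ndufa8 the lowest delta array fell among the I183M values. For Ndufs6 all I183M and delta arrays lay above all control arrays, while I183P replicate 3 fell below control replicates 2 and 3. Delta minus control was 0.63 for Ndufa8 (SE 0.32, adjusted p 0.704) and I183P minus control was 0.57 for Ndufs6 (SE 0.34, adjusted p 0.563).

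Complex II oxidises succinate and is at the same time an enzyme of the citric acid cycle. Its 4 subunits, which are all nuclear, stayed within 0.2 of control replicates 2 and 3 in every group mean. Sdha, the flavoprotein, read 5.74, 7.08 and 7.29 in control, 7.13, 7.28 and 7.28 in I183M, 7.18, 7.17 and 7.03 in I183P, and 7.23, 7.27 and 7.35 in delta. Sdhb, the iron-sulphur subunit, read 7.45, 8.72 and 8.80 in control, 8.72, 8.85 and 8.94 in I183M, 8.84, 8.91 and 8.59 in I183P, and 8.85, 8.94 and 8.83 in delta. The membrane anchor Sdhc read 5.26, 6.69 and 6.92 in control, 6.71, 7.03 and 6.99 in I183M, 6.81, 6.93 and 6.46 in I183P, and 6.83, 6.73 and 6.68 in delta. Delta lay above all I183P arrays for Sdha and above all control arrays for Sdhb, and it overlapped I183M in all of them. The other anchor, Sdhd, read 6.14, 7.54 and 7.49 in control, 7.39, 7.53 and 7.54 in I183M, 7.46, 7.51 and 7.43 in I183P, and 7.59, 7.60 and 7.41 in delta. Over all arrays, delta minus control was 0.55 for Sdhb (SE 0.33) and 0.58 for Sdha (SE 0.35), and I183M minus control was 0.62 for Sdhc (SE 0.38), with adjusted p-values of 0.704, 0.704 and 0.879 in limma. Relative to control replicates 2 and 3 the 4 log2 folds against control ran from -0.03 to 0.11 in I183M, from -0.07 to 0.02 in I183P and from -0.06 to 0.11 in delta.

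Complex III passes electrons from coenzyme Q to cytochrome c. Cyc1, its cytochrome c1, read 7.10, 8.53 and 8.57 in control, 8.51, 8.62 and 8.63 in I183M, 8.28, 8.43 and 8.34 in I183P, and 8.34, 8.32 and 8.45 in delta. Leaving control replicate 1 aside, all I183P and delta arrays lay below all control and I183M arrays. I183P minus I183M was -0.23 (SE 0.35, adjusted p 1.00 in limma) over all 12 arrays. With array weights the same difference had SE 0.06 and an adjusted p of 0.0492, and that of Ndufa11, as weighted, was -0.32 (SE 0.08, adjusted p 0.0472). Both margins to the threshold were narrow, and no other setting passed either gene.

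Other complex III subunits moved in both directions by small steps. The core subunit Uqcrc1 read 6.09, 7.27 and 7.27 in control, 7.28, 7.26 and 7.27 in I183M, 7.18, 7.25 and 7.03 in I183P, and 7.20, 7.20 and 7.15 in delta. Leaving control replicate 1 aside, its I183P and delta arrays lay below all control and I183M arrays, as for Cyc1. Delta minus I183M was -0.09 for Uqcrc1 (SE 0.30, adjusted p 1.00, limma). Uqcr10 read 6.65, 7.96 and 8.05 in control, 8.06, 8.12 and 8.13 in I183M, 8.03, 8.18 and 7.88 in I183P, and 8.16, 8.17 and 8.12 in delta. The other core subunit, Uqcrc2, read 6.88, 8.16 and 8.27 in control, 8.21, 8.28 and 8.30 in I183M, 8.26, 8.32 and 8.14 in I183P, and 8.30, 8.34 and 8.33 in delta. Uqcrq read 7.50, 8.74 and 8.77 in control, 8.68, 8.88 and 8.88 in I183M, 8.83, 8.87 and 8.69 in I183P, and 8.85, 8.98 and 8.87 in delta. Its second probe read 8.02 to 8.15 on the delta arrays and at most 7.90 on the other 9, so the 2 probes differed in whether delta separated from the rest. Over all arrays delta minus control was 0.57 for Uqcrq (SE 0.31), 0.59 for Uqcr10 (SE 0.33) and 0.56 for Uqcrc2 (SE 0.33), each with an adjusted p of 0.704 in limma.

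Complex IV reduces oxygen. Its nuclear subunits come in isoforms with tissue-specific use, and each isoform pair was compared as the difference of 2 probes on the same array, from which any constant shift of the array drops out. The size of such a difference has no meaning of its own, since it holds the brightness of both probes, and only its change between arrays is read. The differences are descriptions without a test.

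Cox7a1, the muscle type, read lower relative to the ubiquitous Cox7a2 in delta than in every other group. The log2 difference of Cox7a1 and Cox7a2 was 1.93, 2.04 and 1.96 in control, 2.08, 1.84 and 1.91 in I183M, 1.99, 2.02 and 1.89 in I183P, and 1.73, 1.74 and 1.75 in delta. The 3 delta arrays lay below all other 9, control replicate 1 included. Group means were 1.98 ± 0.05 (SD, n = 3) in control, 1.95 ± 0.12 in I183M, 1.97 ± 0.06 in I183P and 1.74 ± 0.01 in delta. Within slide 2 the delta mean lay 0.15 below I183P replicate 3.

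The separation held with normexp and quantile normalization, where delta ran from 1.54 to 1.69 and the other arrays from 1.76 to 1.94. It was lost by a small overlap in the authors' deposited table (delta up to 1.78, others from 1.77) and with quantile normalization of the processed intensity (delta up to 1.87, others from 1.86). Cox7a1 itself read 7.95, 9.37 and 9.42 in control, 9.28, 9.49 and 9.60 in I183M, 9.54, 9.53 and 9.20 in I183P, and 9.29, 9.36 and 9.35 in delta. Cox7a2 read 6.01, 7.33 and 7.46 in control, 7.20, 7.65 and 7.69 in I183M, 7.55, 7.52 and 7.30 in I183P, and 7.56, 7.62 and 7.60 in delta. Read alone, Cox7a2 was higher on all delta arrays than on all control and I183P arrays and overlapped I183M, while Cox7a1 in delta overlapped I183M and I183P and lay below control replicates 2 and 3. With each array centred on the median of the subunits, Cox7a1 was the 1 subunit whose delta arrays lay below all others (3.34% of features did).

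The 250 bases before the start of both genes are shown because this pair changed relative to each other, from the RefSeq table of build GRCm38.p6. They are printed 5′ to 3′ in the direction of the gene, and capitals would mark a motif match.
Cox7a1, chr7:30183921-30184170, plus strand: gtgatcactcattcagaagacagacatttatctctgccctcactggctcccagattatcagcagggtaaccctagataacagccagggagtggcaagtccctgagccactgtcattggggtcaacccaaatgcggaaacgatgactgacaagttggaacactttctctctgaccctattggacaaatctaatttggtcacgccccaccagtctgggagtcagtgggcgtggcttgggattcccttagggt
Cox7a2, chr9:79759854-79760103, minus strand: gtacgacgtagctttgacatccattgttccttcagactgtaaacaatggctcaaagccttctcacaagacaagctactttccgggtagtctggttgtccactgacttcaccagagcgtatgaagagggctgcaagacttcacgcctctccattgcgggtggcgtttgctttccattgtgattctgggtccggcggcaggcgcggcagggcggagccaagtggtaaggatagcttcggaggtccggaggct

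None of the motifs searched was found in either window. The other muscle-type isoforms did not share the pattern of Cox7a1. The log2 difference of Cox6a2 and Cox6a1 was 2.09, 1.74 and 1.81 in control, 1.75, 1.81 and 1.90 in I183M, 1.89, 1.94 and 1.71 in I183P, and 1.81, 1.90 and 1.84 in delta. That of Cox8b and Cox8a was 1.69, 1.45 and 1.52 in control, 1.56, 1.42 and 1.41 in I183M, 1.47, 1.49 and 1.54 in I183P, and 1.47, 1.46 and 1.43 in delta. On this scale delta lay inside the range of the other arrays for both pairs, though below all I183P arrays for Cox8b and Cox8a. With normexp and quantile normalization, delta was 1.46 to 1.51 for Cox8b and Cox8a. There it lay below all control and I183M arrays and overlapped I183P (from 1.48). For Cox6a2 and Cox6a1 it lay above all I183M arrays on that scale. In the authors' deposited table delta overlapped every group for Cox8b and Cox8a. Cox7a2l, a factor of supercomplexes and not a muscle isoform, differed from Cox7a2 by -0.44 to -0.12 over the 12 arrays, with delta at -0.32 to -0.25.

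**Figure D4:**
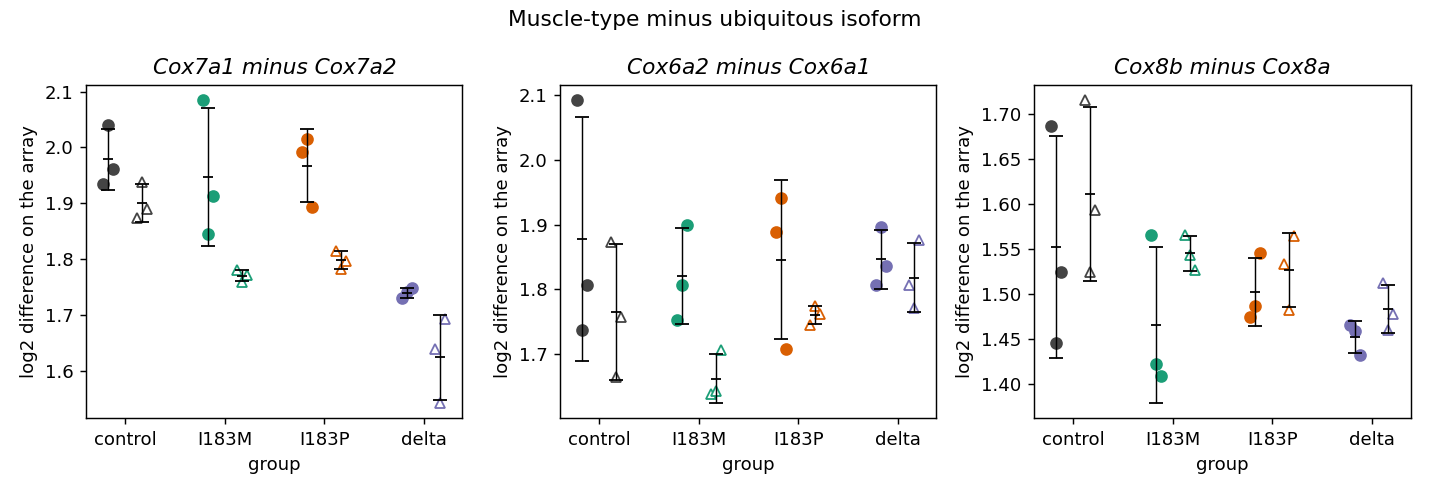
The log2 difference of the muscle-type and the ubiquitous isoform on each array is plotted by group for 3 pairs of complex IV subunits. Filled circles use the 75th percentile scale, open triangles normexp and quantile normalization, and bars give the mean ± SD of 3 arrays. For Cox7a1 and Cox7a2 the delta circles (1.73 to 1.75) and triangles (1.54 to 1.69) lie below all others of the same kind.

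The single isoforms moved with the class. Cox6a1 read 6.41, 7.93 and 7.99 in control, 7.93, 8.01 and 8.03 in I183M, 7.93, 7.90 and 7.87 in I183P, and 7.98, 8.03 and 7.98 in delta. Cox6a2 read 8.51, 9.67 and 9.80 in control, 9.68, 9.82 and 9.93 in I183M, 9.82, 9.84 and 9.58 in I183P, and 9.78, 9.93 and 9.82 in delta. Cox8a read 6.02, 7.50 and 7.49 in control, 7.34, 7.66 and 7.71 in I183M, 7.57, 7.50 and 7.22 in I183P, and 7.52, 7.67 and 7.64 in delta. In all of them I183P replicate 3 was the lowest array outside control replicate 1. Cox8b read 7.70, 8.95 and 9.02 in control, 8.91, 9.09 and 9.11 in I183M, 9.04, 8.98 and 8.76 in I183P, and 8.98, 9.13 and 9.07 in delta. Cox7a2l read 5.83, 6.89 and 7.28 in control, 7.02, 7.32 and 7.31 in I183M, 7.43, 7.27 and 6.96 in I183P, and 7.29, 7.37 and 7.28 in delta. The groups overlapped for Cox8b when control replicate 1 was set aside. For Cox7a2l the lowest delta array and the highest control array rounded to the same value, with delta above by less than 0.001.

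Cox4i1, the common form of subunit 4, read 7.72, 8.98 and 9.06 in control, 8.97, 9.09 and 9.17 in I183M, 9.12, 9.16 and 8.82 in I183P, and 9.05, 9.12 and 9.08 in delta. Cox4i2, the form known from lung and from low oxygen, read -0.02, 1.01 and 1.14 in control, 1.08, 1.51 and 1.47 in I183M, 1.29, 1.54 and 1.27 in I183P, and 1.30, 1.10 and 1.10 in delta. I183P minus control was 0.66 for Cox4i2 (SE 0.30, adjusted p 0.563, limma), with I183P above all control arrays. The hypoxia-inducible Ndufa4l2 read 1.75, 2.94 and 2.82 in control, 2.85, 3.28 and 3.31 in I183M, 2.94, 3.12 and 2.99 in I183P, and 3.18, 3.07 and 2.90 in delta. Its common partner Ndufa4 read 6.24, 7.61 and 7.62 in control, 7.68, 7.77 and 7.69 in I183M, 7.67, 7.68 and 7.52 in I183P, and 7.80, 7.78 and 7.80 in delta. Ndufa4 was highest on the 3 delta arrays, whose lowest value was close to the highest elsewhere (7.78 against 7.77). I183M minus control was 0.65 for Ndufa4l2 (SE 0.31, adjusted p 0.879, limma).

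Cox6b1 read 4.59, 6.03 and 6.01 in control, 5.86, 6.10 and 6.14 in I183M, 6.07, 6.04 and 5.70 in I183P, and 5.97, 5.94 and 5.99 in delta. Its testis isoform Cox6b2 read -0.62, 0.59 and 0.67 in control, 0.15, 0.55 and 0.29 in I183M, 0.52, 0.04 and -0.74 in I183P, and 0.12, 0.17 and 0.17 in delta. The difference of delta from control without control replicate 1 was -0.48 for Cox6b2, and control replicates 2 and 3 were its highest arrays. The difference of Cox6b2 and Cox6b1 was -5.44 to -5.21 on the control arrays and -6.44 to -5.54 on all others. With normexp and quantile normalization control replicate 1 had the lowest difference of all, at -7.22. Quantile normalization of the processed intensity put it lowest too, at -7.61, so the separation was lost on both quantile scales. Cox7b read 6.97, 8.32 and 8.48 in control, 8.32, 8.62 and 8.60 in I183M, 8.48, 8.58 and 8.17 in I183P, and 8.47, 8.41 and 8.49 in delta. Cox6c, a small membrane subunit, read 7.11, 8.38 and 8.44 in control, 8.31, 8.51 and 8.49 in I183M, 8.47, 8.53 and 8.38 in I183P, and 8.56, 8.64 and 8.63 in delta. Delta was highest for Cox6c, at 0.63 above control (SE 0.32, adjusted p 0.704, limma).

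The testis isoforms Cox7b2 and Cox8c were near background. Cox7b2 was well above background on 9 of 12 arrays, which leave out I183M replicate 3 and I183P replicates 1 and 2. It read -2.65, -3.65 and -3.09 in control, -3.22, -3.90 and -4.69 in I183M, -5.33, -5.10 and -4.29 in I183P, and -4.18, -3.78 and -3.58 in delta. I183P lay below all control arrays, by 1.78 (SE 0.43, adjusted p 0.563, limma). The same difference was -0.22 with normexp and quantile normalization. Cox8c was well above background on 3 arrays, namely control replicate 1, I183M replicate 1 and delta replicate 2, and it read -1.45, -3.46 and -4.22 on those and -7.31 to -5.93 on the others. Those 3 arrays had the highest shares of spots well above background in the study. The part of array background in the Cox8c and Cox7b2 values was not tested.

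In ATP synthase, 1 subunit separated delta from all other arrays on each of 3 scales. Atp5c1 encodes the gamma subunit, the central shaft that turns inside the catalytic head. It read 5.32, 6.58 and 6.63 in control, 6.54, 6.53 and 6.58 in I183M, 6.41, 6.51 and 6.55 in I183P, and 6.83, 6.93 and 6.95 in delta. All 3 delta arrays lay above the other 9, and the lowest of them lay above the highest of the others by more than the whole range within delta. A second probe for Atp5c1 gave 6.94 to 7.08 in delta and at most 6.63 elsewhere.

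Delta minus control was 0.73 for Atp5c1 (SE 0.32, adjusted p 0.668, limma), and 0.30 (SE 0.09, adjusted p 0.186) without control replicate 1. Delta minus I183M was 0.36 and delta minus I183P was 0.42, with adjusted p-values of 0.171 and 0.218 in the fit without control replicate 1. I183P replicate 3 lies on the slide of the delta arrays and read 0.36 below their mean, and 0.39 below it for the second probe. That array was low for most subunits, and the median subunit read 0.23 below the delta mean on it. None of these differences passed the threshold, and with normexp and quantile normalization delta minus control was 0.16.

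Atp5l encodes subunit g, a small subunit of the membrane part that joins ATP synthase dimers. Its brightest probe read 7.30, 8.46 and 8.66 in control, 8.56, 8.61 and 8.65 in I183M, 8.58, 8.66 and 8.44 in I183P, and 8.68, 8.73 and 8.74 in delta. Atp5l has 5 tested probes, and in each of them the 3 delta arrays lay above the other 9. The step of delta from control replicates 2 and 3 ran from 0.16 to 0.45 over the 5 probes, and that from I183P replicate 3 on the same slide from 0.22 to 0.32. The median subunit lay 0.23 above I183P replicate 3 in the same way, so the step within the slide is not particular to Atp5l.

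The windows before the start of Atp5c1 and Atp5l are shown because more than 1 probe of each read highest in delta. Capitals mark motif matches. For Atp5c1 the RefSeq table lists 2 overlapping windows, and the other holds no match.
Atp5c1, chr2:10080433-10080682, minus strand: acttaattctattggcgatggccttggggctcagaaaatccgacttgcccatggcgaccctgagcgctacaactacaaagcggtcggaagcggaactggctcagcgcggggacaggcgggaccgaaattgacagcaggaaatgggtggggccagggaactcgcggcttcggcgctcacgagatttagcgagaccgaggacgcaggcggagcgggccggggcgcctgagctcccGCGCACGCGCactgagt
Atp5l, chr9:44920743-44920992, minus strand: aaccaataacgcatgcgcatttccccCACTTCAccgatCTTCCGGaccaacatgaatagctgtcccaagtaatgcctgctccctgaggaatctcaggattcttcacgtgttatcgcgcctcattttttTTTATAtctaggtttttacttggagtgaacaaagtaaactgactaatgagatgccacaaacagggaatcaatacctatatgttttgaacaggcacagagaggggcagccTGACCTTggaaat

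In the Atp5c1 window the capitals are an NRF1 motif, and in the Atp5l window they are, in order, an Nkx2-5 motif, an ETS motif, a TATAAA and an ERR motif, each read on the other strand. These are letter matches and not sites of binding.

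**Figure D5:**
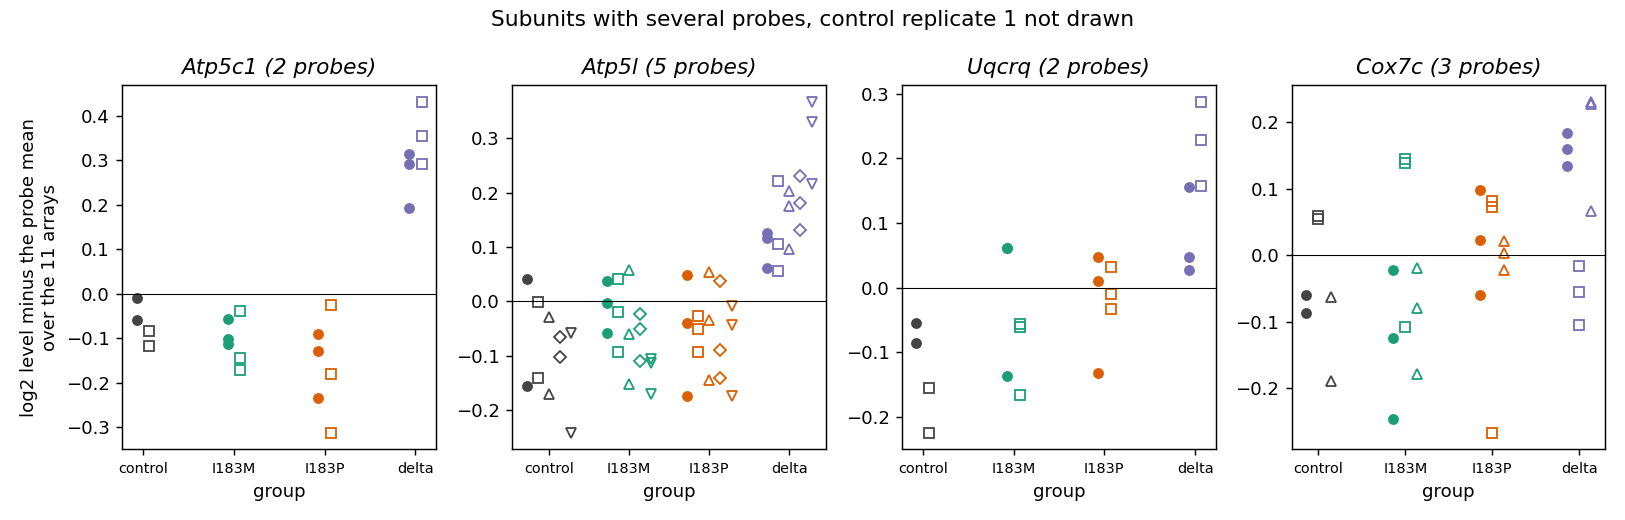
The log2 level of each probe minus its mean over the 11 arrays other than control replicate 1 is plotted by group for 4 subunits with several probes, filled circles for the probe used in the test and open marks for the others, with control replicate 1 not drawn. The delta points lie above all others in both Atp5c1 probes and all 5 Atp5l probes. For Cox7c, 1 of 3 probes shows delta below the control arrays.

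Cox7c, a small complex IV subunit, shows the limit of such readings. Its brightest probe read 5.99, 7.31 and 7.34 in control, 7.16, 7.28 and 7.38 in I183M, 7.43, 7.50 and 7.34 in I183P, and 7.56, 7.59 and 7.54 in delta, where delta was highest. A second probe of nearly the same brightness read 7.15 to 7.24 in delta, below control replicates 2 and 3 by 0.12. The remaining, dim probe put delta highest again. Cox7c is therefore reported as uncertain. In all, 22 subunits had more than 1 tested probe (51 probes). Without control replicate 1 the probes of a gene shared a direction in 14 of 22 for delta versus control, in 13 for I183M versus control and in 11 for I183P versus control. They did so in 18 of 22 for delta versus I183P and in 9 of 22 for delta versus I183M.

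The other ATP synthase subunits stayed with the class. Atp5a1, the alpha subunit of the catalytic head, read 7.52, 8.78 and 8.79 in control, 8.86, 8.93 and 9.01 in I183M, 8.99, 9.10 and 8.78 in I183P, and 8.92, 8.91 and 9.08 in delta. Atp5o, part of the stalk that holds the head in place, read 6.06, 7.37 and 7.47 in control, 7.29, 7.50 and 7.56 in I183M, 7.50, 7.49 and 7.43 in I183P, and 7.55, 7.64 and 7.62 in delta. Over all arrays delta minus control was 0.61 for Atp5a1 (SE 0.32) and 0.63 for Atp5o (SE 0.33), each with an adjusted p of 0.704 in limma. Delta overlapped I183M in both genes.

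Atp5g1, Atp5g2 and Atp5g3 encode the same mature c subunit of the rotor ring with different import sequences. Atp5g1 read 7.85, 9.25 and 9.28 in control, 9.20, 9.38 and 9.46 in I183M, 9.31, 9.41 and 9.13 in I183P, and 9.31, 9.41 and 9.38 in delta. Atp5g2 read 6.91, 8.30 and 8.39 in control, 8.20, 8.52 and 8.59 in I183M, 8.48, 8.51 and 8.22 in I183P, and 8.45, 8.52 and 8.56 in delta. Atp5g3 read 7.64, 9.05 and 9.08 in control, 8.98, 9.13 and 9.23 in I183M, 9.11, 9.16 and 8.91 in I183P, and 9.10, 9.14 and 9.09 in delta. The difference of Atp5g1 and Atp5g3 moved within 0.19 to 0.29 over all 12 arrays, and that of Atp5g2 and Atp5g3 within -0.78 to -0.53.

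Over the whole class, 8 of 86 subunits had their 3 delta arrays above all other 9, while 3.16% of all features did. These were Atp5c1, Atp5l, Cox6c, Cox7c, Ndufa4, Ndufa5, Ndufb2 and Ndufb5. No subunit had delta below all other arrays (0.903% of features). On the normexp and quantile scale 4 subunits had delta above all other arrays (Atp5c1, Atp5g1, Atp5g2 and Ndufa7), with 2.85% of features. Uqcrc1 had delta below all others there (1.08%). With each array centred on the median of the subunits, 2 had delta above all others (Atp5c1 and Ndufa5), with 0.339% of features. Cox7a1 had delta below all others there (3.34%). Atp5c1 was in all 3 sets with delta above. No other group had a subunit above all arrays of the rest on the 75th percentile scale. I183P lay below all arrays but control replicate 1 for Cox6a1, Ndufa6, Ndufa9 and Ndufb2, or 4 subunits, while 1.91% of features did. No subunit separated slide 2 from slide 1, while 2.61% of features read higher on all 4 arrays of slide 2 than on all 8 of slide 1.

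Motifs were counted in the 250 bases before the start, on both strands, for the 69 subunits with a window in the table and for all 27025 symbols, using the window listed first for each symbol, so that the match printed for Atp5c1, in its other window, is not in these counts. An NRF1 motif (GCGC, 2 bases of any kind, then GCGC) was found for 14 of 69 subunits, or 20.3%, and for 5.09% of all symbols. An ETS motif (CCGGAAG) was found for 11, or 15.9%, against 7.05%, and an ERR motif (AAGGTCA) for 5, or 7.25%, against 4.05%. NRF1, the ETS factor GABP and the ERR receptors are textbook regulators of respiratory genes. An Nkx2-5 motif (TNAAGTG) was found for 6 subunits, or 8.70%, against 10.0% of all symbols, and TATAAA for 7, or 10.1%, against 13.0%. The YY1 motif (AAGATGG) and the MEF2 consensus were found for none, against 4.53% and 3.01%. The median GC content of the windows was 56.4% for subunits and 52% for all symbols. None of the searched motifs overlapped another in the windows printed above.

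Genes that work beside the subunits were read from lists of assembly factors and partners. Of 10 such lists (assembly factors of each complex, cytochrome c and coenzyme Q synthesis, carriers, mitochondrial DNA maintenance, regulators of respiratory genes and the citric acid cycle), 122 genes were measured. In each of the 6 comparisons 0 of them were higher and 0 lower past the threshold in limma (0% to 0.0738% of all features). At an unadjusted p under 0.05 the counts were 0, 1 and 4 in I183M, I183P and delta versus control. They were 0, 2 and 2 in I183P versus I183M, delta versus I183M and delta versus I183P. The shares of all features were 1.46%, 5.18%, 7.35%, 1.28%, 3.51% and 2.78%. Without control replicate 1 the counts were 4, 17, 22, 8, 12 and 11. The shares were then 6.16%, 8.16%, 14.9%, 9.51%, 11.4% and 12%. The median log2 fold of these genes against control was then -0.04 in I183M, -0.09 in I183P and -0.04 in delta. It was 0.05, 0.0047 and 0.08 for the subunits and 0.09, 0.01 and 0.16 for all features. The subunits encoded by mitochondrial DNA were not analysed here.

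Cox17, the copper chaperone that serves complex IV assembly, followed the slides. It read -3.01, -3.22 and -3.09 in control, -3.28, -3.13 and -3.42 in I183M, -3.40, -3.46 and -1.74 in I183P, and -1.44, -1.36 and -1.61 in delta. The 4 high arrays are those of slide 2, I183P replicate 3 among them. Delta minus I183M was 1.81 (SE 0.40, adjusted p 0.654, limma). Ckmt1, a mitochondrial creatine kinase, read 3.67 on I183P replicate 3 and 3.74 to 3.96 in delta, against 1.80 to 3.31 on slide 1. Delta minus control was 1.16 for it (SE 0.35, adjusted p 0.406). Within I183P, both genes read higher on the slide 2 array than on the slide 1 arrays, which is a difference between slides inside 1 genotype (Ckmt1 read 3.16 and 3.29 on the latter).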

How the data were processed

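RNA of the heart apex was read on 12 single-colour Agilent arrays. Scanner files hold spot intensity per the file headers, extracted with Agilent Feature Extraction 11.0.1.1 (protocol GE1_1100_Jul11, layout build mm9); the processed intensity is already background-subtracted there. A deposited table of the authors' log2 values, with column medians of 6.89 to 6.94, was used as an alternative only. Its steps are not given in the sources used here, though the submitters' processing notes name limma, and its columns correlated at 0.998 to 0.999 with normexp and quantile normalized values.

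The main values were log2 of the processed intensity minus the 75th percentile of each array. Spots of a probe were averaged, 96 of 55681 probes with missing values were left out, and 27235 probes carried a symbol. A probe was tested if well above background on at least 3 arrays (41591 probes), and the brightest probe stood for a gene, which gave 29795 features, 17259 of them with a symbol. Groups were compared in 1 fit over all 12 arrays with limma 3.58.1 in R 4.3.3 and Benjamini-Hochberg adjustment at 0.05. The number of arrays limits the precision.

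Values on every array are given for members past the threshold, for isoform families, for 3 members of each complex and for 5 members of each comparison with the smallest unadjusted p. Further members were named for their values after these were seen (Atp5l, Ndufb5, Ndufa6, Ndufa9, Ndufa11, Ndufa7, Sdhd, Uqcrc1 and Cyc1). The values of some members are not reported here. Members and lists were chosen with earlier results of these data known. Alternatives changed the scale, background correction (normexp, offset 50), filter, probe choice, slide or replicate block, array weights and arrays used. Arrays of the same replicate number deviated together in control and I183M (correlations 0.79, 0.56 and 0.50). The other pairs of groups gave -0.81 to 0.32. Deviations from a group mean are not independent of each other. Control replicate 1 and I183M replicate 1 also both had a high share of spots well above background (99.1% and 72.8%). These correlations therefore cannot decide whether arrays were paired. The labels state no pairing. The fit was checked on simulated data. Promoter windows came from RefSeq, build GRCm38.p6.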

Additional observations from a re-analysis of the deposited data

How the results depend on the processing

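Over 31 alternatives, 5 of them chosen after seeing the data, no subunit passed the threshold in any comparison, except 2 in I183P versus I183M with array weights. Leaving out 1 array at a time gave median subunit folds of 0.05 to 0.75 in I183M versus control, 0.0047 to 0.69 in I183P versus control and 0.08 to 0.77 in delta versus control, each lowest without control replicate 1. The range was -0.11 to 0.02 in I183P versus I183M, -0.04 to 0.06 in delta versus I183M and 0.01 to 0.12 in delta versus I183P, with 0 subunits past the threshold throughout. Scaling each array by its median gave 0.73 in I183M, 0.93 in delta and 1.27 in I183P versus control, and 0.54 in I183P versus I183M, 0.20 in delta versus I183M and -0.35 in delta versus I183P. The median of all features moved with it, to 0.33, 0.44, 0.79, 0.51, 0.15 and -0.29 in the same order. Centred on the ventricular markers, the medians against control were 0.04 in I183M, 0.07 in I183P and 0.15 in delta, and those of all features were -0.36, -0.40 and -0.34. Delta versus I183M had medians of 0.11 when centred on the ventricular markers, 0.25 with the slide as a block (both also without control replicate 1) and -0.045 with array weights. Delta versus I183P had 0.23 with the slide as a block, also without control replicate 1, and on slide 2 alone, and -0.015 when centred on the subunits (also without control replicate 1), where the median is near 0 by construction. The cause of the other shifts was not tested. With normexp and quantile normalization the medians against control were 0.01 in I183M, -0.01 in I183P and 0.00 in delta. Of 15296 single subunit folds under alternatives, 2214 changed sign, none of them past the threshold, and 54 of 540 isoform differences moved beyond the spread of replicates.

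The replicate block changed no call for the subunits, with 0 of them past the threshold. Its medians were 0.50, 0.45 and 0.53 against control, -0.06 in I183P versus I183M, 0.03 in delta versus I183M and 0.08 in delta versus I183P. These medians equal those of the main fit by construction, because every group holds every replicate number. The block could change only the spread and the calls. Cox7b2 and Cox8c, which were not well above background on all arrays, are limited by signal over background.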
